A study of Sus scrofa with 6 samples.

Results

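Cells with an astrocyte-like marker profile were followed in single-cell RNA sequencing libraries of porcine midbrain-like organoids (pMLOs) on days 28 and 45 of culture (D28 and D45). A cell was a member of this gated population when it held 2000 or more UMIs and at most 7000 detected genes. It also had to show at least 1 UMI of 3 or more of the genes AQP4, GFAP, GJA1, AGT and SPARCL1, fewer than 3 UMIs of the neuronal gene STMN2, and fewer than 3 of the genes COL1A1, COL3A1, LUM and DCN. A UMI, or unique molecular identifier, marks 1 captured mRNA molecule. The rule was met by 2432 of the 41956 D28 and D45 cells inside the UMI and gene limits, in a series of 104820 barcodes. Because the members were chosen on these counts, their levels against other cells are given as a description without a test.

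The series holds 6 libraries, namely replicates A and B of D11, D28 and D45. All come from a single pig embryonic stem cell line derived by in vitro fertilization, labelled IVF_1_ pESC_FIW, with no genetic change named. The D28 and D45 libraries, the only ones compared here, come from the same culture protocol at different times, whereas D11 precedes the embedding. The organoids had been patterned towards the ventral midbrain with SHH, the GSK3 inhibitor CHIR99021 and FGF8, and after embedding in Matrigel their medium held BDNF, GDNF, ascorbic acid, db-cAMP and DAPT, a gamma-secretase inhibitor that blocks Notch signalling. The labels give midbrain dopaminergic neurons as the cell type of every library, whereas the cells described here were selected for glial genes. The study calls its libraries biological duplicates. The number of organoids per library is not given in the sources used here, so p-values measure the spread between these libraries only.

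Astrocytes are glial cells that clear glutamate and potassium around synapses, move water at their endfeet on blood vessels, carry lipids between cells and secrete proteins that act on synapses. They arise from radial glia after neurons have begun to form, and they share many genes with these progenitors and with ependymal cells. AQP4 is the water channel of the endfeet and GFAP an intermediate filament protein. GJA1 forms gap junctions, AGT is the precursor of angiotensin and in the brain is made mostly by astrocytes, and SPARCL1 is a secreted matrix protein that promotes synapse formation. In RefSeq's annotation of Sscrofa11.1, matched by symbol, AQP4 (ENSSSCG00000035965) is a protein-coding gene on chromosome 6 at 111407632 to 111422169. GFAP (ENSSSCG00000017343) lies on chromosome 12 at 18456268 to 18466594, and GJA1 (ENSSSCG00000004241) on chromosome 1 at 40988818 to 41002129. AGT (ENSSSCG00000010184) lies on chromosome 14 at 59643030 to 59656835, and SPARCL1 (ENSSSCG00000009222) on chromosome 8 at 131386804 to 131431427. All 5 are protein-coding. The 3' libraries count whole genes and do not separate exons or isoforms.

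The gated population was rare on D28 and common on D45. It made up 23 of 9240 cells in D28 replicate A (0.249%, exact 95% binomial interval 0.158 to 0.373) and 27 of 11070 in D28 replicate B (0.244%, 0.161 to 0.355). On D45 it made up 956 of 10506 cells in replicate A (9.10%, 8.56 to 9.67) and 1426 of 11140 in replicate B (12.8%, 12.2 to 13.4). The means were 0.246% ± 0.00355 on D28 and 11.0% ± 2.62 on D45 (SD, n = 2). Both D45 libraries lay above both D28 libraries, and the two-sided exact permutation test gave p = 0.33, the smallest value that 2 libraries against 2 can give. D11, used as a background, had 2 such cells in each library, which are not members. These shares do not show whether the number of such cells or their detectable RNA rose.

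Depth differed between the cells compared. The gated cells held a median of 15254 and 19295 UMIs on D28 and 16061.5 and 15292.5 on D45, against 9777, 9964, 8781.5 and 9075 in the other cells of the same libraries. A marker is seen more often in a deeper cell, and free RNA in droplets can add single UMIs. The marker rule was therefore also applied to cells with 3 or more STMN2 UMIs, called STMN2 cells. These were also held to fewer than 3 of COL1A1, COL3A1, LUM and DCN. They are a comparison group and not a background free of the markers. On D45 SPARCL1 was found in 42.4% and 53.2% of them. On D28, 0.871% and 0.512% of the cells that passed the exclusions showed 3 or more markers, against 0.366% and 0.212% of the STMN2 cells, at median depths of 13642.5 and 12582 against 7244 and 8498.5 UMIs. When every cell was thinned to 2000 UMIs, 0 of 2640 and 1 of 5273 passing cells and 2 of 5198 and 0 of 5664 STMN2 cells still met it. With counts of 0 to 2 the thinned D28 rates cannot show or exclude a difference, and with all UMIs the passing cells were also the deeper ones. The D28 members are therefore called gated cells here rather than astrocyte-like cells.

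On D45 the rates were 19.96% and 27.2% of passing cells against 6.01% and 8.72% of STMN2 cells, at median depths of 8868.5 and 9901 against 8981.5 and 8389.5 UMIs. After thinning they were 6.24% (95% interval 5.57 to 6.96) and 8.58% (7.83 to 9.37) against 1.69% (1.36 to 2.08) and 1.89% (1.52 to 2.33). In both D45 libraries the intervals did not overlap, but the rates count the rule's own markers and are a description, not a test. When the whole rule, with its STMN2 and collagen limits, was applied to the thinned counts, 3.58% and 4.80% of all D45 cells and 0.0325% and 0.00903% of D28 cells met it, some of which the limits had excluded at full depth. The intervals cover counting error within a library only.

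**Figure D1:**
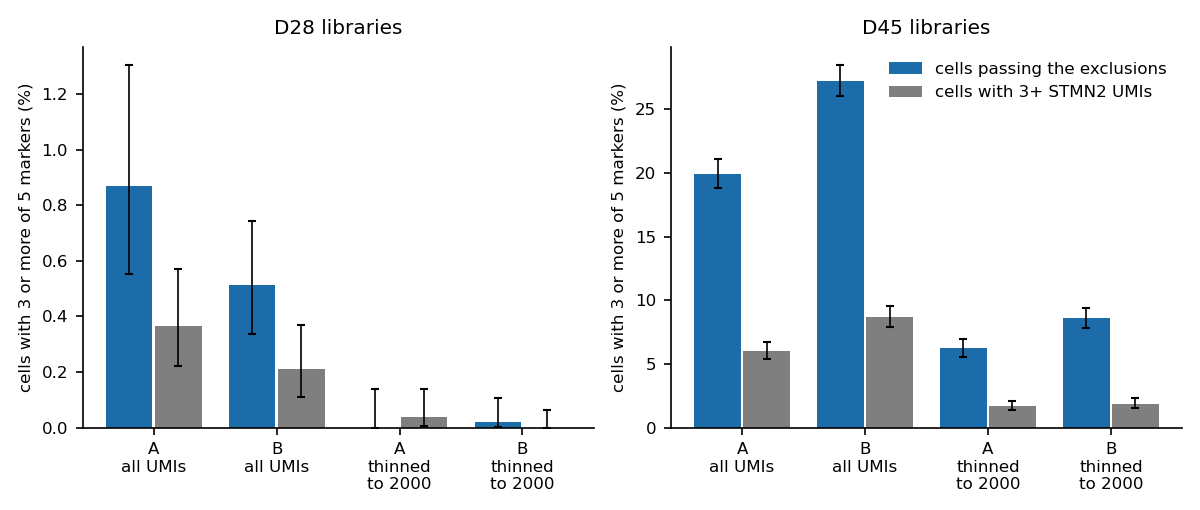
Share of cells with 3 or more of the 5 markers (y axis, percent, with exact 95% binomial intervals) in D28 (left) and D45 (right) libraries. Bars give cells that passed the exclusions (blue) and cells with 3 or more STMN2 UMIs (grey). Both groups showed fewer than 3 of COL1A1, COL3A1, LUM and DCN. They are shown with all UMIs and after thinning each cell to 2000 UMIs, and the panels have different y scales. On D45 the blue bars stand above the grey ones in both replicates, at 6.24% and 8.58% against 1.69% and 1.89% after thinning, while on D28 the thinned bars lie at or near 0.

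The D28 and D45 members met the rule in different ways. All 23 gated cells of D28 replicate A had exactly 3 markers, and in D28 replicate B 25 had 3, 2 had 4 and none had 5. On D45, 476, 348 and 132 cells of replicate A and 691, 526 and 209 cells of replicate B had 3, 4 and 5 markers. SPARCL1 was found in 99.6% of the gated cells of both D45 libraries, with a median of 41 and 39 UMIs per cell. It was also found in 48.4% and 57.6% of the D45 cells outside the gate that passed the exclusions, against 23.6% and 14.1% on D28. With SPARCL1 left out of the rule, 4.61% and 6.65% of D45 cells met it, and 2 and 2 cells on D28. GFAP was found in 83.8% and 82.3% of the gated D45 cells, GJA1 in 72.1% and 72.2%, AQP4 in 62.0% and 61.4%, and AGT in 46.5% and 50.7%. On D28 GJA1 (82.6% and 85.2%) and SPARCL1 (91.3% and 96.3%) carried most cells, while AQP4 was found in 21.7% and 29.6%. The commonest combination in D28 replicate A, GJA1 with AGT and SPARCL1 and without AQP4 and GFAP, held 10 of its 23 cells. On D45 the commonest combination was AQP4, GFAP, GJA1 and SPARCL1 without AGT, with 187 and 269 cells.

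Just outside the rule, 229 and 331 cells on D28 and 748 and 1038 cells on D45 passed the exclusions and showed 2 markers. At the STMN2 limit, 192 and 297 gated D45 cells held 2 UMIs of STMN2, and 109 and 147 cells with 3 UMIs were left out that otherwise met the rule. At the depth limit, 22 and 23 gated D45 cells held fewer than 500 UMIs above 2000, and 31 and 31 cells up to 500 UMIs below it met the other conditions. On D28, 11 and 3 gated cells showed 2 of the 4 collagen and proteoglycan genes of the rule, and 16 and 6 cells with 3 of them were left out.

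Levels are given below as CPM, the UMIs of a gene per 1000000 UMIs summed over the cells of a library. The marker genes themselves, which chose the cells, are stated as a description. SPARCL1 stood at 3030.1 and 3315 CPM in the gated cells of D45 replicates A and B and at 412 and 518 CPM in the other cells. GFAP stood at 373 and 368 CPM against 44.7 and 50.1, and AQP4 at 310.4 and 324 CPM against 23.6 and 34.3. GJA1 reached 111 and 131 CPM and AGT 105 and 137 CPM. In the gated cells of D28, SPARCL1 was at 271 and 206 CPM, GFAP at 79.7 and 48.2 CPM and AQP4 at 23.9 and 42.4 CPM. Nearly all D28 members showed exactly 3 markers, so their marker levels follow in part from the selection and no difference between days is read from them.

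Genes outside the rule were then compared between gated and other cells of the same library. The other D45 cells included 5307 and 4838 cells with 3 or more STMN2 UMIs, beside 3834 and 3808 that passed the exclusions. Ratios to other cells are thus not ratios to glial cells alone. A gene was counted when it reached 10 CPM in either group and differed at least 2-fold after 5 CPM had been added to both. A gene of low level could enter only through the group where it was high, so the counts for lists below describe the genes that entered and say nothing of a list as a whole. In both D45 libraries 432 of 10736 genes were higher in the gated cells (4.02%) and 683 were lower (6.36%). Over all 4 libraries 29 of 10611 genes were higher (0.273%) and 289 were lower (2.72%). The count of 29 was 90 without D28 replicate A and 62 without D28 replicate B. The median gene lay at a log2 ratio of −0.12 over all 4 libraries and −0.14 on D45. Mitochondrial UMIs, from 13 protein-coding genes, made up a median of 2.03% and 1.52% (D28) and 1.67% and 1.94% (D45) of the UMIs of gated cells, against 1.27%, 0.832%, 0.648% and 1.06% in other cells, and their part in these differences was not tested.

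Some genes for the handling of glutamate, GABA, potassium and water were higher in the D45 gated cells. Of 16 listed genes in the files, 11 reached 10 CPM in at least 1 group, and 7 of these were at least 2-fold higher. SLC1A3, the glutamate transporter GLAST, stood at 818 and 573 CPM in gated cells and at 141 and 140.4 CPM in other cells. Its D28 gated levels were 104 and 289 CPM. In D45 cells with 2 markers that passed the exclusions, SLC1A3 stood at 371 and 246 CPM. SLC4A4, a sodium bicarbonate cotransporter, stood at 168 and 126 CPM against 55.2 and 53.3, and ATP1B2, a sodium pump subunit, at 133 and 116 CPM against 49.6 and 47.7. MLC1 and HEPACAM, partner membrane proteins of astrocyte endfeet, stood at 18.8 and 22.4 CPM and at 33.9 and 35.0 CPM, against at most 3.23 and 6.57 CPM in other cells. SLC1A2, the glutamate transporter GLT-1 of mature astrocytes, was higher in replicate A alone, at 113 against 68.5 CPM, and stood at 57.5 against 66.7 CPM in replicate B. GLUL, which makes glutamine from glutamate, stood at 204 and 293 CPM against 128 and 143.

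Several defining genes of mature astrocytes were near 0 in the same cells. The potassium channel gene KCNJ10 stood at 1.78 and 1.68 CPM in D45 gated cells and at 1.92 and 1.82 CPM in other cells. ALDH1L1, a folate enzyme used as an astrocyte marker, stood at 1.34 and 1.36 CPM, the glycolytic gene ALDOC at 0.51 and 1.14 CPM, and the connexin gene GJB6 at 1.34 and 0.45 CPM. All 4 were at 0 UMIs in the D28 gated cells, where 3 UMIs would have equalled 7.97 and 5.78 CPM. At such levels these 4 markers did not set the gated cells apart, and how well the libraries capture them was not tested. Of 20 other astrocyte markers in the files, 14 reached 10 CPM in at least 1 group, and 11 of these were at least 2-fold higher on D45, while GPC5, a glypican, was lower.

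Among those 11 genes, CLU, a secreted chaperone also called apolipoprotein J, stood at 5907 and 4657 CPM in the D45 gated cells and at 1235 and 1204 CPM in other cells. Its levels on D28 were similar in the gated cells, at 6938 and 4326 CPM, but other D28 cells had 4338 and 2884 CPM. APOE, the main lipid carrier protein of the brain, stood at 1153 and 1184 CPM on D45 against 194 and 353 CPM in other cells. CPE, a carboxypeptidase that processes peptides, stood at 1296 and 1400 CPM against 357 and 415. TTYH1, an anion channel gene, stood at 554 and 432 CPM against 143 and 123, and EDNRB, an endothelin receptor gene, at 175 and 164 CPM against 38.4 and 46.3. These genes were taken from those at least 2-fold higher in both D45 libraries, so their gap to other cells follows in part from that choice. In D45 cells with 2 markers that passed the exclusions, CLU stood at 3319 and 2430 CPM and APOE at 338 and 325 CPM. In the same cells CPE stood at 591 and 699 CPM, TTYH1 at 358 and 249 CPM and EDNRB at 64.8 and 62.1 CPM.

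**Figure D2:**
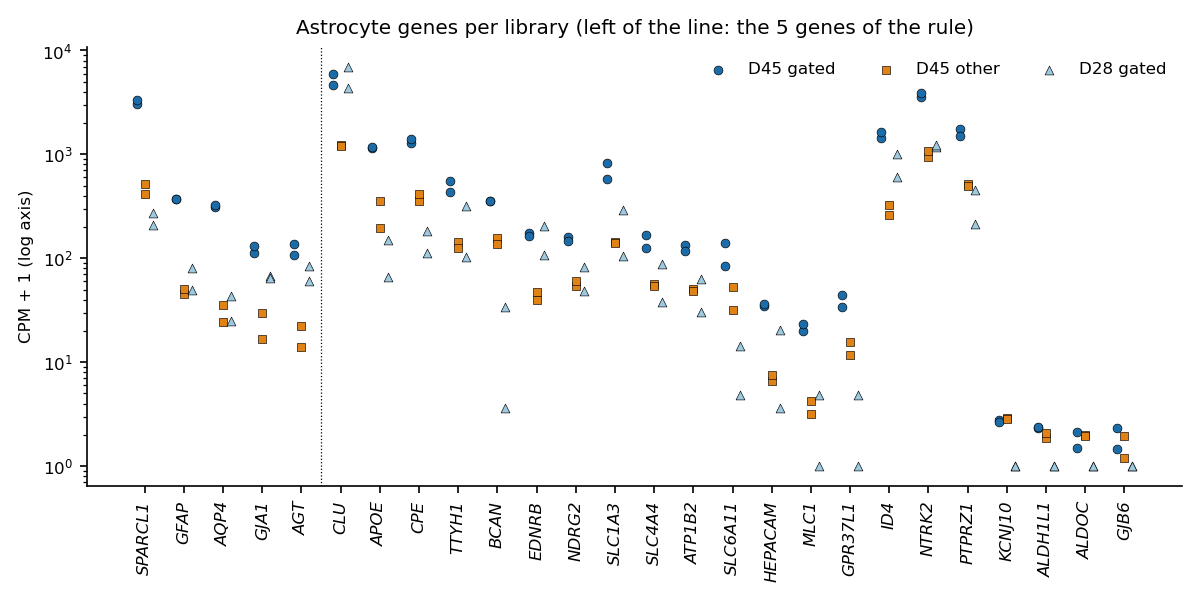
CPM + 1 (y axis, log scale) of 26 astrocyte genes in gated cells of D45 (circles), other cells of D45 (squares) and gated cells of D28 (triangles), 1 point per library; genes left of the dotted line are the 5 of the rule. CLU, APOE, SLC1A3 and NTRK2 stand clear of the other D45 cells, whereas KCNJ10, ALDH1L1, ALDOC and GJB6 lie near 0 in every group.

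Of 18 secreted and matrix genes with roles at synapses, 16 reached 10 CPM in at least 1 group and 6 of these were at least 2-fold higher on D45. PTN, a heparin-binding growth factor, stood at 4770 and 4913 CPM in D45 gated cells and at 953 and 1280 CPM in other cells. NTRK2, the BDNF receptor gene, which astrocytes express mainly in a truncated form, stood at 3532 and 3898 CPM against 936 and 1075. In D45 cells with 2 markers that passed the exclusions, PTN stood at 2453 and 2681 CPM and NTRK2 at 1834 and 1899 CPM. TNC, a matrix glycoprotein, stood at 404 and 350.4 CPM against 71.8 and 94.4, and MEGF10, an engulfment receptor, at 122 and 107 CPM against 44.9 and 46.3. The thrombospondin genes THBS1 to THBS4 did not exceed 26.3 CPM in the D45 gated cells, and GPC6, a glypican that recruits glutamate receptors, was lower, at 49.7 and 72.1 CPM against 202 and 206. 

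Of 18 glial transcription factor genes, 5 were at least 2-fold higher on D45 and none lower. The ID genes code for inhibitors of differentiation that act downstream of BMP signalling, and all 4 were among them. ID4 stood at 1421 and 1624 CPM against 262 and 326 CPM in other cells, ID3 at 377 and 519 CPM against 77.0 and 123, ID2 at 243 and 337 CPM against 67.0 and 88.3, and ID1 at 240.3 and 417 CPM against 44.3 and 86.1. SOX9, a gliogenic factor, stood at 133 and 124 CPM against 36.2 and 36.5. NFIA, which switches progenitors to making glia, stood at 1256 and 1024 CPM against 534 and 546, a ratio that reached 2 in replicate A alone. Of 9 Notch pathway genes, HEY1 and LFNG were higher. HES5, a Notch target, stood at 28.7 and 17.7 CPM against 11.4 and 11.5. In D45 cells with 2 markers that passed the exclusions, ID4 stood at 655 and 666 CPM.

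Of 13 radial glia and progenitor genes, 5 were at least 2-fold higher on D45. VIM, a filament gene of radial glia, stood at 11891 and 12262 CPM in gated cells and at 3299 and 4357 CPM in others, FABP7, a radial glia lipid-binding protein, at 1933 and 1436 CPM against 383 and 416, and PTPRZ1, a receptor phosphatase, at 1749 and 1499 CPM against 520.4 and 497. NES, the progenitor filament nestin, stood at 65.2 and 81.0 CPM against 52.0 and 67.3. In D45 cells with 2 markers that passed the exclusions, VIM stood at 9529 and 8620 CPM. FABP7 stood there at 945 and 654 CPM and PTPRZ1 at 998 and 867 CPM. Of 15 genes of the reactive astrocyte list, 6 were higher, namely VIM, OSMR, S100A6, CRYAB, CP and TNC, while the complement gene C3 (0.83 and 1.82 CPM) and LCN2 (0.32 and 2.59 CPM) were near 0. MT3, a brain metallothionein, stood at 1883 and 1925 CPM against 396 and 542. In the D45 cells with 2 markers MT3 stood at 1047 and 1173 CPM. The cholesterol synthesis gene SQLE did not follow, at 163 and 166 CPM against 425 and 260.1 in other cells. The hypoxia genes ADM, PFKP and PDK1 were at least 2-fold lower, with PDK1 at 38.5 and 36.5 CPM against 167 and 98.0.

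Outside the lists, the genes with the largest minimum ratio over the 4 libraries were NTS, TFPI2, CRYAB, FOLH1B, NPVF, IGSF11, TST, S100A6, GATM, APOE, PRR5L and THRB, of which CRYAB, S100A6 and APOE are also list members. NTS, the neurotensin precursor, stood at 542 and 212 CPM in D28 and at 195 and 631 CPM in D45 gated cells, against 91.6, 20.8, 30.5 and 150.3 CPM in others. TFPI2, a secreted protease inhibitor, stood at 340.2, 212, 203 and 234 CPM, and 1 cell held 67.2% and 74.5% of its UMIs in the D28 libraries. NPVF, an RFamide neuropeptide precursor, rested on 1 cell in both D28 libraries, with all 11 of its UMIs in replicate A and 99.8% in replicate B. IGSF11, a cell adhesion gene, was found in 610 of 956 and 848 of 1426 gated cells on D45, but on D28 it rested on 14 and 11 UMIs in 6 of 23 and 5 of 27 cells.

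On D45 alone the leading genes were EPHX2, ID4, DTHD1, CD38, PDLIM3, CRHBP, FOLH1B, ID1, MT1X, TPBG, PON2 and CPVL. EPHX2, a soluble epoxide hydrolase, stood at 264 and 223 CPM against 36.5 and 40.6 in other cells. CD38, an NAD-consuming enzyme, stood at 145 and 96.8 CPM against 18.3 and 15.8, and CRHBP, which binds corticotropin-releasing hormone, at 209 and 355 CPM against 26.4 and 69.4. Genes with the lowest ratios were INA, DSCAM, KHDRBS2, COL6A3, GAD2, DSCAML1, PPFIA2, HECW1, SCN3A, NSG2 and SGIP1, most of which are neuronal. INA, a neuronal filament gene, stood at 7.26 and 7.86 CPM against 135.2 and 135.4, and GAD2, a GABA-synthesizing enzyme, at 5.67 and 3.45 CPM against 113 and 74.8. STMN2 itself was limited by the rule, so lower neuronal genes were in part set by it. Against other cells without those holding 3 or more STMN2 UMIs, 16 genes were higher and 31 lower in all 4 libraries.

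Markers of other cell types were read in the gated cells with each cell thinned to 2000 UMIs. At least 3 of 9 neuron genes were found in 11.0% and 9.19% of D45 gated cells, against 25.2% and 21.3% of the cells outside the gate that passed the exclusions. Without thinning these shares were 83.3% and 83.8% against 70.8% and 68.8%. At least 3 of 8 oligodendrocyte lineage genes were found in 0.314% and 1.12% of gated cells against 14.3% and 13.8%. Single UMIs of these genes were more widespread without thinning, with MBP in 15.9% and 19.0% and SOX10 in 7.53% and 8.91% of D45 gated cells. The 6 of 8 lineage genes that reached 10 CPM in at least 1 group were at least 2-fold lower in the gated cells, with the myelin gene MBP at 14.0 and 54.7 CPM against 461 and 324. At least 3 mitotic genes were found in 1.05% and 0.631% of gated cells against 1.93% and 3.07%, and at least 3 fibroblast-list genes in 3.77% and 3.02% against 1.51% and 2.21%.

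The D28 gated cells were read for the same lists. At least 3 of 8 floor plate genes were found in 60.9% and 81.5% of them without thinning and in 17.4% and 29.6% after it, against 26.7% and 32.4% of the thinned cells that passed the exclusions outside the gate. At least 3 of 7 fibroblast-list genes were found in 52.2% and 44.4% without thinning, against 14.3% and 9.25% of the passing cells, and in 1 thinned cell of each library. On D45 the unthinned share for floor plate genes was 27.2% and 39.7% of gated cells, against 7.93% and 13.4% of the passing cells outside the gate. For fibroblast-list genes it was 42.5% and 42.3% against 8.66% and 14.3%. The gated cells were the deeper ones. After thinning, the floor plate shares were 2.30% and 3.58% against 1.67% and 2.73%. The part of these genes in the comparison of days was not tested.

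Microglial genes were low throughout. TYROBP was at 0 in the gated cells of both D45 libraries and CSF1R at 0.25 and 0.23 CPM, and the summed level of the 6 microglial genes was 24.4 and 21.4 CPM against 28.9 and 26.6 CPM in other cells. The 5 endothelial genes in the files summed to 40.0 and 53.4 CPM against 29.5 and 33.3 CPM in other cells. CLDN5, a tight junction gene, was found in 12.1% and 18.7% of gated cells against 2.95% and 6.09% of the shallower passing cells outside the gate, without thinning, and CDH5, the endothelial cadherin gene, stood at 0.06 and 0 CPM. Summed choroid plexus genes reached 4.27 and 8.77 CPM. Fibroblast-list genes outside the rule summed to 903 and 1182 CPM in gated cells against 708 and 1742 CPM, most of it COL1A2 at 662 and 948 CPM. Floor plate genes summed to 419 and 487 CPM against 229.8 and 324 CPM. No doublet caller was run, and the part of doublets or free RNA in these levels was not tested.

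**Figure D3:**
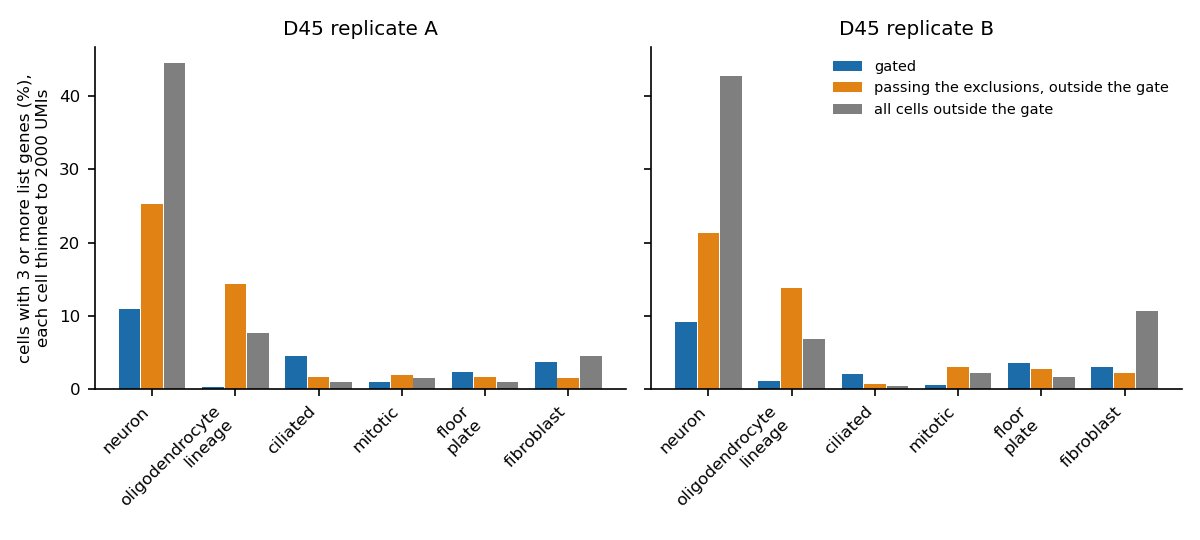
Share of D45 cells with 3 or more genes of a list (y axis, percent) after thinning each cell to 2000 UMIs, for gated cells (blue), cells that passed the exclusions but lie outside the gate (orange) and all cells outside the gate (grey), in replicates A (left) and B (right). Cells with 3 or more oligodendrocyte lineage genes make up 0.314% and 1.12% of gated cells, below the other bars, whereas those with 3 or more ciliated genes are more frequent in them, at 4.498% and 2.03% against 1.70% and 0.735% of the orange cells.

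A ciliated subset lay inside the gate. At least 3 of 7 genes of motile cilia were found in 183 of 956 and 174 of 1426 gated D45 cells, and 4 of the 7 genes were at least 2-fold higher in gated than in other cells. These cells were deeper, with a median of 23205 and 21562.5 UMIs against 14756 and 14583 in the remaining gated cells. FOXJ1, the master regulator of motile cilia that chose them in part, stood at 174 and 215 CPM in them and at 8.19 and 8.78 CPM in the rest. CDC20B, a gene of cells that form many cilia and not on the list, stood at 229 and 259 CPM against 2.33 and 1.65. AQP4 was shared by both, at 235 and 279.99 CPM against 337 and 333, while AGT stood at 43.2 and 74.4 CPM against 127 and 150. SLC1A3 stood at 868 and 677 CPM in the ciliated subset and at 800.4 and 551 CPM in the rest. The subset was defined after its values were seen and is given as a description.

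On D45 the levels of genes outside the rule also moved with the number of markers a cell showed. From 3 to 5 markers APOE went from 836 to 1655 CPM in replicate A and from 779 to 1996 CPM in replicate B. S100A1, a calcium-binding protein gene, went from 91.5 to 246 and from 97.6 to 288 CPM, and CA12, a carbonic anhydrase gene, from 85.7 to 187 and from 86.3 to 218 CPM. In the other direction, SCG2, a secretogranin of neuroendocrine vesicles, went from 2729 to 745 and from 2389 to 672 CPM. BMP4, a BMP ligand gene, went from 162 to 45.9 and from 247 to 71.0 CPM, and NPVF from 193 to 15.02 and from 148 to 0.835 CPM. NPVF rested on few cells, 69 of 956 and 41 of 1426 gated cells, with 13.8% and 24.7% of its UMIs in 1 cell. Of 10132 genes, 9 were at least 2-fold higher and 31 at least 2-fold lower with 5 than with 3 markers in both libraries. Cells with 5 markers were deeper, at a median of 16560 and 16748 UMIs against 14118 and 13979 for 3 markers, and VIM and FOXJ1 did not move steadily with the number.

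**Figure D4:**
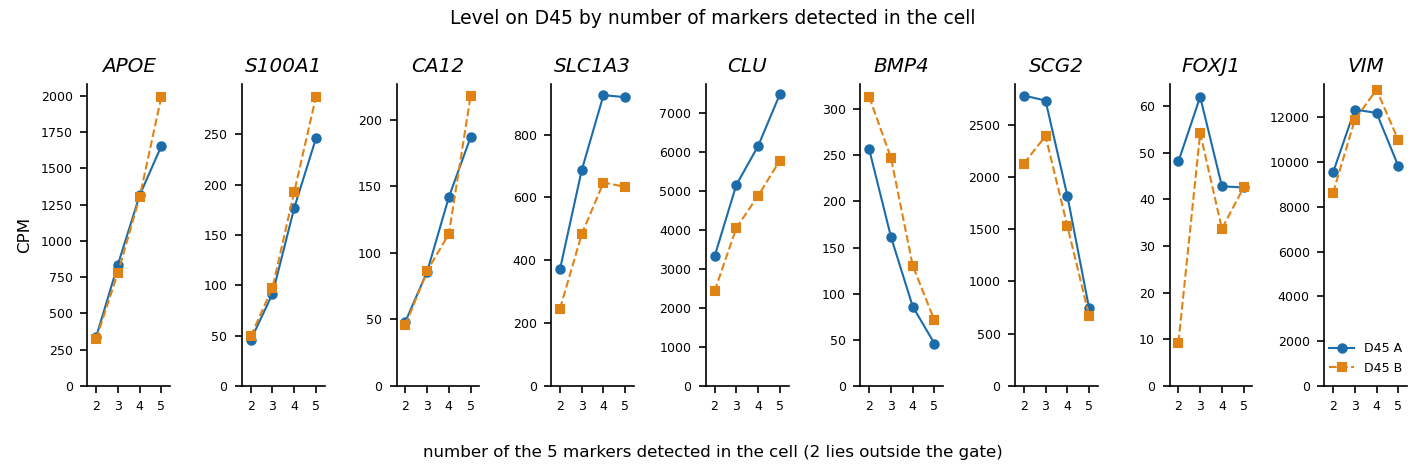
CPM (y axes, each from 0) of 9 genes in D45 cells that passed the exclusions, by the number of the 5 markers detected in the cell (x axis, where 2 lies outside the gate), for replicate A (solid) and replicate B (dashed). APOE, S100A1 and CA12 go up from 2 to 5 markers in both libraries, BMP4 goes down, and SLC1A3 levels off at 4; genes were chosen after their values were seen.

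The comparison of D45 with D28 within the gated cells asked how their expression differed between the days. For each library the UMIs of its gated cells were summed, and the sums were tested by the quasi-likelihood method of edgeR, with p-values adjusted after Benjamini and Hochberg and a threshold of 0.05. The sums held 376201 and 519009 UMIs on D28 and 15700778 and 22000039 on D45, so the D28 side limits the precision. Of 14447 genes tested, 415 passed (2.87%), 211 of them higher (1.46%) and 204 lower (1.41%) on D45. The libraries of the days did not overlap for 58.1% of all genes. The count was 1425 without D28 replicate B and 263 without D45 replicate A, and 245 with cells at 0 STMN2 UMIs only. Thinning to 2000 UMIs left 170, among them 99 of the 368 main calls still tested, and 4 turned in sign. Nearly all D28 members showed exactly 3 markers, whereas many D45 members showed 4 or 5. With cells of exactly 3 markers only, a setting chosen after seeing the data, 292 genes passed, 275 of them main calls. Whether the gate held the same kind of cell on both days was not tested. The changes are therefore not read as changes within 1 cell type.

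Not every call was equally well covered. Of the 211 higher genes, 5 had 0 UMIs in both D28 libraries and 28 had 1 to 3 UMIs. Only 95 of them had UMIs in 5 or more gated cells of both D28 libraries. For 12 of the 178 with more than 3 D28 UMIs, at least 50% came from 1 cell. Of the 204 lower genes, 150 had UMIs in 5 or more gated cells of both D28 libraries, whereas for 16 at least 50% of the D28 UMIs came from 1 cell. The cells behind the largest falls are given below.

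Astrocyte list genes were among the rises. Of 17 other astrocyte markers tested, 5 rose and none fell, namely APOE, CPE, BCAN, GPR37L1 and GPC5. GPC5 had 1 and 2 UMIs on D28. On D45 it was found in 19.9% and 14.4% of gated cells, against 58.9% and 41.6% of cells with 3 or more STMN2 UMIs. The median of the list was a log2 fold change of 1.23, against 0.08 over all genes, with genes at 0 on D28 set to their bound. APOE rose from 149 and 65.5 CPM to 1153 and 1184 CPM, a log2 fold change of 3.45 ± 0.46 (SE, edgeR adjusted p = 0.025). CPE rose from 181 and 112 CPM to 1296 and 1400 CPM, by 3.20 ± 0.38 on the log2 scale (edgeR adjusted p = 0.0198). BCAN, the matrix proteoglycan brevican, rose from 2.66 and 32.8 CPM to 352 and 352 CPM, by 4.20 ± 0.57 (edgeR adjusted p = 0.027). Its level in D28 replicate A was 1 UMI. Among passing cells outside the gate, BCAN was found in 1.57% and 7.85% on D28 and in 35.5% and 39.1% on D45. GPR37L1, an orphan receptor gene of astrocytes, had 0 and 2 UMIs on D28 and 33.3 and 43.6 CPM on D45, a pooled ratio of 17.6 with a counting interval of 4.87 to 146. In each of these genes both D45 libraries lay above both D28 libraries.

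Of 14 genes for transport of glutamate, GABA, potassium and water, 1 rose. SLC6A11, the astrocyte GABA transporter GAT-3, went from 13.3 and 3.85 CPM to 82.5 and 139 CPM, by 3.83 ± 0.60 on the log2 scale (edgeR adjusted p = 0.0337). The other 13 did not pass, although the list's median was 1.47 with bounds. Among 17 secreted and matrix genes 3 rose, TNC by 2.33 ± 0.42 and the proteoglycan gene NCAN by 2.81 ± 0.31 on the log2 scale beside BCAN, and GPC6 fell by 2.39 ± 0.34, from 237 and 408 CPM to 49.7 and 72.1 CPM. PTPRZ1 rose from 213 and 453 CPM to 1749 and 1499 CPM, and it and TNC were the 2 of 13 radial glia genes that passed. With TNC, CD44, a hyaluronan receptor gene, made up the 2 of 17 reactive genes that rose, from 10.6 and 3.85 CPM to 57.6 and 54.2 CPM. Of 15 lipid genes 2 rose, APOE and ABCA1, which loads lipid onto APOE and went from 50.5 and 52.0 CPM to 184 and 165 CPM. MT3, 1 of 3 metal-handling genes tested, rose from 82.4 and 302.5 CPM to 1883 and 1925 CPM, by 3.31 ± 0.55 on the log2 scale (edgeR adjusted p = 0.0388).

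Of 18 glial transcription factors 1 rose and 1 fell. RORB, a nuclear receptor gene, went from 29.2 and 21.2 CPM to 82.5 and 71.2 CPM. HES1, a Notch target that keeps progenitors undifferentiated, fell from 221 and 150.3 CPM to 68.6 and 53.3 CPM, by 1.61 ± 0.29 on the log2 scale (edgeR adjusted p = 0.044), and it was the only one of 11 Notch pathway genes that passed. Floor plate genes, which mark the ventral midline progenitors of the midbrain, had 3 falls among 8 genes. CORIN, a floor plate serine protease, fell from 154 and 193 CPM to 12.5 and 14.5 CPM, by 3.68 ± 0.23 on the log2 scale (edgeR adjusted p = 0.0102). The pioneer factor genes FOXA1 and FOXA2 fell by 2.27 ± 0.33 and 3.15 ± 0.32. The summed level of the list went from 1018 and 1742 CPM to 419 and 487 CPM in gated cells and from 831 and 1389 CPM to 229.8 and 324 CPM in the others. Among 7 mitotic genes UBE2C, BIRC5 and CDK1 fell. In D28 replicate B 1 cell held 77.6% of the UMIs of UBE2C and 63.9% of those of BIRC5, and BIRC5 turned to a log2 fold change of 0.68 when cells with 3 or more mitotic genes were left out.

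In the remaining lists, 1 gene passed in each of 4 and none in the rest. LDHA, the glycolytic lactate dehydrogenase gene, was the one of 13 hypoxia and glycolysis genes, going from 1103 and 736 CPM to 240.05 and 296 CPM. MX1, an antiviral GTPase gene, was the one of 11 interferon genes, going from 93.0 and 173 CPM to 15.2 and 32.9 CPM. FOXJ1 was the one of 7 ciliated genes, going from 7.97 and 11.6 CPM to 51.3 and 44.2 CPM, but its log2 fold change turned from 2.26 to −0.13 without the cells with 3 or more ciliated genes. OLIG1, of 7 oligodendrocyte lineage genes, is described below. None of 9 neuron, 7 fibroblast, 7 immediate early, 3 endothelial, 3 microglial and 15 brain position genes and the 1 choroid plexus gene passed edgeR's test. At an unadjusted p under 0.05 the neuron list had 6, the fibroblast list 2, the immediate early list 4, the brain position list 4 and the other lists 0. DESeq2 called 2 of the neuron, 1 of the fibroblast and 3 of the immediate early genes and 0 of the rest.

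The largest rises started from few or no UMIs on D28. KCNK12, a two-pore potassium channel gene, and OLIG1, an oligodendrocyte lineage factor, had 0 UMIs in both D28 libraries. KCNK12 stood at 32.9 and 28.3 CPM on D45, in 225 and 340 cells, which was at least 9.01-fold higher than a floor of 3 UMIs over both D28 libraries (edgeR adjusted p = 0.0279). OLIG1 stood at 31.3 and 20.4 CPM, in 86 and 148 cells, at least 7.43-fold higher (edgeR adjusted p = 0.046), although the other D45 cells had more of it, at 94.7 and 83.7 CPM. CA12 had 1 UMI in each D28 library and 124 and 119 CPM on D45, a pooled ratio of 54.1 with a counting interval of 14.97 to 447 (edgeR adjusted p = 0.0102). COL21A1, a fibril-associated collagen gene, had 1 UMI in each D28 library and 94.8 and 164 CPM on D45, a pooled ratio of 60.4 (16.7 to 499).

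CDC20B, DAPL1, TAFA3, PLA2G7 and EDIL3 each had 1 UMI on D28, and DPP6 had 2. Their D45 levels lay between 19.8 and 61.5 CPM, and their pooled ratios between 21.8 for EDIL3 (3.89 to 860) and 46.8 for CDC20B (8.40 to 1851). CDC20B came from only 42 and 48 cells on D45, with 28.2% and 17.0% of its UMIs in 1 cell, whereas DPP6, a subunit of potassium channels, came from 334 and 522 cells. The other D45 cells had more of DPP6, at 120 and 114 CPM, and of EDIL3, at 81.6 and 79.7 CPM, and about as much COL21A1, at 83.8 and 174 CPM. GABRB1, a GABA-A receptor subunit gene, had 2 and 4 UMIs on D28 (5.32 and 7.71 CPM) and 224 and 130.2 CPM on D45, a log2 fold change of 4.72 ± 0.50 (edgeR adjusted p = 0.0166). It was found in 558 and 684 gated D45 cells.

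Among the largest falls, some were spread over cells and others rested on 1 cell. CMTM8, a membrane protein of the MARVEL family, fell from 869 and 796 CPM, in 17 of 23 and 23 of 27 cells, to 18.5 and 28.6 CPM. Its log2 fold change was −5.14 ± 0.38 (edgeR adjusted p = 0.0102), and the other cells of the libraries went from 657 and 592 CPM to 34.1 and 57.4 CPM. Its relative CMTM7 fell from 98.4 and 42.4 CPM to 3.18 and 3.23 CPM, and EPSTI1, an interferon-inducible gene, from 53.2 and 84.8 CPM to 1.66 and 3.64 CPM. In contrast, TFAP2A, a neural crest and surface ectoderm factor, had 77.4% and 100% of its D28 UMIs in 1 cell, APOA1, a lipoprotein gene, 89.9% and 95.3%, and FST, the activin antagonist follistatin, 81.6% and 100%. CYP1A1, a xenobiotic-metabolizing enzyme, had 100% and 62.5%. SVOPL had 64.7% and 100% in 1 cell, and NIBAN1 had 2 UMIs in D28 replicate A and 78.8% of 52 UMIs in 1 cell of replicate B. The falls of these 6 genes thus rest on few D28 cells. FST turned to a log2 fold change of 8.19 when cells with 3 or more mitotic genes were left out, a fitted value that depends on the prior count. CCDC68, with 52.9% and 30.0% of its D28 UMIs in 1 cell, and EGFL6, with 23.6% and 45.0%, also fell, from D28 levels of 38.5 to 146 CPM to at most 6.82 CPM.

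**Figure D5:**
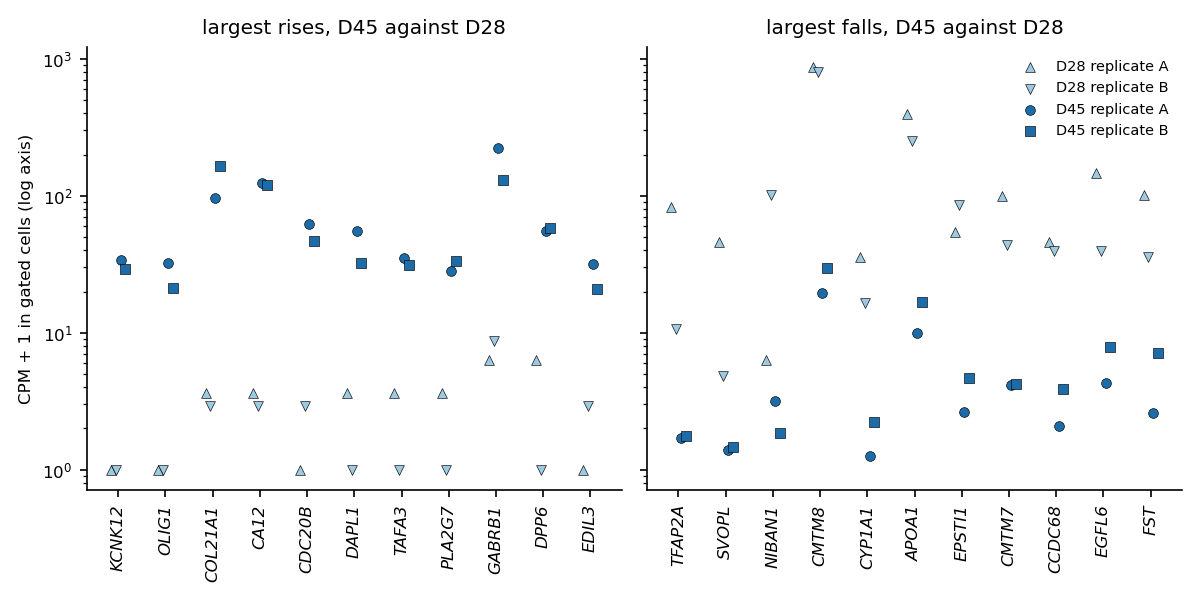
CPM + 1 in gated cells (y axis, log scale) of 11 of the largest rises (left) and 11 of the largest falls (right) past the threshold, for each D28 (triangles) and D45 (circles and squares) library. Most rises start at 0 or 1 UMI on D28, and the falls range from CMTM8 near 800 CPM in both D28 libraries to genes carried by 1 cell, such as TFAP2A in D28 replicate B.

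Whether these day changes differed from those of the other cells in the same libraries was tested as an interaction over 8 sums, with the library as a block. Of 20419 genes, 656 passed (3.21%), 480 with a more positive change in the gated cells (2.35%) and 176 with a more negative one (0.862%). Under DESeq2's size factors 440 passed, 253 positive and 187 negative, and the median over all genes moved from 0.39 to 0.25, so the size of a single difference is to be read against that shift. The count was 88 without D28 replicate A, 143 without D28 replicate B and 360 without D45 replicate A. DESeq2 with the block called 521, 244 positive and 277 negative, with the median at −0.09. Without the library block 0 genes passed edgeR's test, with 1653 at an unadjusted p under 0.05. After thinning, 130 of the 654 main calls tested still passed and 20 turned in sign. Without cells with 3 or more mitotic genes, 295 of the 656 still passed and 29 turned in sign. With gated cells of exactly 3 markers, 891 genes passed, 609 of them main calls. The limit given above, that the gate may hold different cells on the 2 days, applies here too.

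Positive differences were found for a minority of the genes of several lists, glial and neuronal. CPE had a difference of 2.38 ± 0.20 on the log2 scale (edgeR adjusted p = 2.29e-05), while the other cells went from 200.1 and 173 CPM to 357 and 415 CPM. CLU had 1.66 ± 0.17 (edgeR adjusted p = 0.000139) and ID4 1.63 ± 0.19 (edgeR adjusted p = 0.000366). For CLU the gated cells went from 6938 and 4326 CPM to 5907 and 4657 CPM, and the other cells from 4338 and 2884 CPM to 1235 and 1204 CPM. MT3 (2.09 ± 0.31), PTN, NTRK2 and VIM (each 1.02, with SEs of 0.19 to 0.23) were positive too. Of 19 other astrocyte markers tested 6 were positive and none negative, of 16 transport genes 3 were positive, namely ATP1B2, SLC6A11 and SLC7A11, and of 13 radial glia genes 4 were positive, none negative. Of 9 neuron genes 4 were positive too, namely ELAVL3 (1.76 ± 0.41), NEFL (1.48 ± 0.35), ELAVL4 (1.12 ± 0.27) and TUBB3 (0.93 ± 0.22), and none negative. On D28 the gated cells held 2 and 6 UMIs of ELAVL3 and 6 and 31 UMIs of NEFL. For NEFL 1 cell held 83.3% and 61.3% of them in replicates A and B. The differences of ELAVL3 and NEFL thus rest on few D28 UMIs or cells. In TUBB3, a neuronal tubulin gene, the gated cells stood at 152 and 77.1 CPM on D28 and at 100.3 and 134 CPM on D45, and the other cells at 724 and 322 CPM and at 284 and 347 CPM. Positive differences were also found for 2 of 7 ciliated genes (FOXJ1 and RSPH1) and 3 of 20 brain position genes (NKX2-1, LMX1A and IRX3). They were found as well for 3 of 11 interferon genes, ISG15, IFI6 and IFIT1, of which ISG15 and IFI6 stood lower on D45 than on D28 in both groups of cells. IFI6 went from 1502 and 2042 CPM to 590 and 690.1 CPM in the gated cells and from 1182 and 1083 CPM to 140.0 and 232 CPM in the others. APOE's difference of 0.65 did not pass (edgeR adjusted p = 0.375), nor did that of BCAN. CMTM8 passed as more negative in the gated cells, at −1.18 ± 0.19.

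Negative differences included that of the oligodendrocyte lineage gene SOX10 (−3.77 ± 0.70), which was at 76.8 and 66.9 CPM in the other D45 cells and at 6.31 and 10.8 CPM in the gated D45 cells. On D28 the gated cells had 2 UMIs in replicate A and 10 UMIs in replicate B, all 10 in 1 cell, so this difference rests on few D28 cells. The mitotic genes TOP2A, CENPF and AURKB were negative as well, though 1 cell held 82.7%, 90.9% and 62.5% of their UMIs in D28 replicate B, and without cells with 3 or more mitotic genes TOP2A lost the call, at −0.34, and CENPF and AURKB turned to 0.40 and 0.25. The reactive-list gene CCL2, a chemokine, stood at 234 and 1.93 CPM on D28, and its difference of −2.87 turned to 0.043 without D28 replicate A.

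Genes that mark positions along the neural tube were mostly low. The hindbrain genes HOXB2, HOXA3 and HOXB3 were at 0 in the gated cells of all 4 libraries, and HOXA2 had 0 and 1 UMI on D28 and 4 and 23 UMIs on D45. NKX2-1, a ventral forebrain factor, stood at 36.3 and 61.9 CPM on D45 against 29.2 and 39.0 in other cells, OTX2, a fore- and midbrain factor, at 18.5 and 32.0 CPM against 11.5 and 16.2, and LMX1A, a floor plate and dopaminergic lineage factor, at 16.7 and 36.5 CPM against 23.7 and 41.3. SIX3, a factor of the anterior forebrain, was at 22.4 and 10.7 CPM against 74.0 and 57.3, the only one of 9 genes at 10 CPM that differed by 2-fold on D45.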

How the data were processed

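The authors made UMI counts with Cell Ranger against the Sscrofa11.1 genome, and deposited them unnormalized as 1 gene by barcode matrix per library. Seurat 4.3.0 is also named in the submitters' processing notes. Each matrix held 30477 genes. Genes of the rule and of 24 lists were matched by symbol, and 253 of 277 list genes were found. The members and the gene lists were chosen with earlier results of these data known.

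Cells were taken by the rule from the counts, with no clustering, no limit on mitochondrial UMIs and no doublet caller. Of all barcode entries over the libraries, 1265 repeated a barcode already present in another library. The 10 rule genes stayed in library sizes and out of the tests. Counts were summed per library and tested with edgeR 4.0.16 (TMM scaling, filterByExpr, quasi-likelihood test, Benjamini-Hochberg adjustment), in R 4.3.3. Python 3.11.15 with numpy 2.4.6 and scipy 1.17.1 did the rest. DESeq2 1.42.0 was an alternative, as were other filters, limits, thinning, left-out libraries and blocks by library or letter. Gated against other cells was a description, as the ratio of CPM after adding 5 CPM. Intervals and floors of 3 counts cover counting error only. Other cells held 94184322 to 122850624 UMIs per library.

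Named genes were the rule's markers, up to 6 examples per list by the largest change and then by level, the 12 largest rises and falls, the 6 largest interaction terms each way (past the threshold, at 20 CPM or more, with a symbol and non-overlapping days) and the 12 highest ratios of gated over other cells. A few genes of these sets and lists stayed in the tests and counts and are not reported here. The leading genes on D45, the lowest ratios, the ciliated subset, the genes by number of markers and further list genes were named after their values were seen.

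On data simulated at the day comparison's 14447 genes, edgeR found 75% of 100 genes changed by a log2 of 2 and 83% of 100 changed by 3, with 8 false calls. At the interaction's 20419 genes it found 51% and 58%, with 8 false calls. These figures describe the simulated counts only. Some called genes had most of their D28 UMIs in a single cell, and whether the simulation covers such genes was not tested. The false calls are therefore not read as an error rate for the gated sums.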

Additional observations from a re-analysis of the deposited data

Results flagged for a closer look

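The change from D28 to D45 was tested for a difference between the gated and the other cells of the same libraries, and 656 genes were singled out because that test of the difference passed. Among the genes named by rule, the difference on the log2 scale was 4.12 for EDIL3, 4.04 for AK7 and 3.91 for DPP6. GRM3 and ODAD2 gave 13.34 and 13.05, but both had 0 UMIs in the gated cells of D28, so these fitted values depend on the prior count and are no bounds. On D45 GRM3, a metabotropic glutamate receptor gene, stood at 41.1 and 12.2 CPM in gated cells, and the cilium gene ODAD2 at 58.0 and 19.5 CPM. AK7, an adenylate kinase of cilia, had 0 and 1 UMI on D28 and stood at 56.4 and 19.95 CPM on D45. Both levels came mostly from the ciliated subset of the gated cells, with ODAD2 at 214 and 102 CPM in it and at 2.84 and 2.30 CPM in the remaining gated cells, and AK7 at 196 and 94.0 CPM against 7.24 and 4.61 CPM. For EDIL3 and DPP6 the other D45 cells stood above the gated ones, as given above.

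The negative differences were −5.75 for TFAP2A, −5.54 for EGFLAM, −5.34 for ITGA4, −5.10 for FST and −5.07 for CYP1A1. EGFLAM, a matrix protein gene, had 85.7% of its D28 UMIs in 1 cell of each library. ITGA4, an integrin gene, had all 15 of its UMIs in D28 replicate A in 1 cell and 2 UMIs in replicate B. The cells behind TFAP2A, FST and CYP1A1 are given above.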

How the results depend on the processing

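The higher share of gated cells on D45 held its direction under all settings tried, with a difference of 4.17 to 16.2 percentage points. A gate of 4 or more markers could not be fitted for the comparison of days, since D28 had 0 and 2 such cells. The 415 genes that differed between days became 1409 with DESeq2, 1844 without a filter on low counts, 245 with STMN2 at 0 UMIs and 170 after thinning, and leaving out a library gave 263 to 1425. The replicate letters do not pair the libraries by their labels, and the A minus B differences of the days had r = −0.12 across 14447 genes, which are not independent replicates. With the letter as a block 878 genes passed, and with the crossed block, chosen after seeing the data, 1586.

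The 656 genes of the interaction became 1214 without a filter, 0 by edgeR without the library block (1653 at an unadjusted p under 0.05; DESeq2, run with the block, called 521), 178 after thinning and 314 without cells with 3 or more mitotic genes, and leaving out a library gave 88 to 551. The 29 genes higher and 289 lower in gated cells became 180 and 605 at 1.5-fold and 1 and 51 at 4-fold. They became 16 and 31 against other cells with fewer than 3 STMN2 UMIs, and 432 and 683 on D45 alone. The higher count was 48 with 1 CPM added and 76 after thinning, and leaving out a library gave 30 to 90.

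Of the results for named genes under single settings, 1122 kept their direction and call, 406 lost the call and 8 turned. Taken by result, only 10 stayed the same under every setting, and 90 lost the call or turned under at least 1. All 54 interaction results lost the call without the library block, where 0 genes passed. The 10 thus lie among the 46 results of the day comparison. Without cells with 3 or more mitotic genes, a setting chosen after seeing the data like that on ciliated cells, the change turned to 8.19 for FST and 0.68 for BIRC5, and the interaction to 9.72 for FST, 2.63 for CCL2, 0.40 for CENPF and 0.25 for AURKB. FOXJ1 turned to −0.13 without ciliated cells, and leaving out a library moved CCL2's interaction between −3.26 and 0.043, the latter without D28 replicate A. The cause was not tested. The changes of APOE, BCAN, CA12, CMTM7, CMTM8, CORIN, CPE, EPSTI1, MT3 and PTPRZ1 kept direction and call under every setting run.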
